A study of Caenorhabditis elegans with 4 samples.

Results

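The broad autosomal segments of HPL-2 binding are the peaks of the combined peak list that lie outside the X chromosome and span 800 bp or more. This rule chose 297 of the 1819 autosomal peaks and of the 2162 peaks in all. HPL-2 is a C. elegans member of the heterochromatin protein 1 family. Proteins of this family bind nucleosomes whose histone H3 carries methyl groups at lysine 9, bridge neighbouring nucleosomes and can spread along a stretch of chromatin, so that a bound region can be much longer than the site of a sequence-specific factor. In worms, HPL-2 is known for its part in silencing repeats and germline genes in body cells, a role it shares with genes of the synMuv B class such as lin-35, which encodes the retinoblastoma-related protein of worms.

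Binding was mapped by ChIP-seq, the sequencing of DNA recovered with a chromatin protein, in hermaphrodites of strain YL474, harvested as starved first-stage larvae (L1) at 20 degrees Celsius. Every sample carried lin-35(n745), unc-119(ed3) and the transgene vrIs64, in which the ges-1 promoter drives HPL-2 tagged with GFP and FLAG in the intestine and unc-119(+) is the rescue marker. The series has 2 ChIP samples, recovered with antibodies against GFP, and 2 Input samples of the same chromatin before recovery. Neither a strain with wild-type lin-35 nor one without the tag is among these samples. Because chromatin was taken from whole larvae and the tag is driven in the intestine, the peaks describe the tagged protein there, and peak lists hold no expression values with which the tissue could be checked. The labels do not say whether the replicates came from separate cultures.

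The segments were chosen by width, so their width is a description and carries no test. They covered 483.8 kb, or 46.3% of all bases in autosomal peaks and 0.588% of the autosomal length spanned by peaks. Their median width was 1243 bp, with the middle 50% from 971 to 1869 bp and the widest at 7787 bp, against a median of 355 bp for the 1522 narrower autosomal peaks. By width, 85 segments spanned 800 to 999 bp, 102 spanned 1000 to 1499 bp, 47 spanned 1500 to 1999 bp, 50 spanned 2000 to 3999 bp and 13 spanned 4000 bp or more. The 63 segments of 2000 bp or more held 203.8 kb, or 42.1% of the covered length.

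The rule cuts through a continuous range of widths. Just inside it lay III 3702896 to 3703695 (800 bp, q-value 0.00165), IV 7049504 to 7050306 (803 bp, q-value 2.77e-06) and V 15190605 to 15191407 (803 bp, q-value 0.00315). Just outside it lay III 6605604 to 6606402 (799 bp, q-value 0.00177), IV 13239272 to 13240069 (798 bp, q-value 0.00264) and V 7081234 to 7082027 (794 bp, q-value 4.04e-10). All positions are on WormBase WS220.

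The broad segments were the stronger part of the autosomal list, although many of them were weak. Strength is given as -log10 of the q-value that the peak caller assigned, compared only within a list. The median was 6.85 for the 297 segments (exact 95% interval 6.15 to 7.64) and 2.93 for the narrower peaks (2.84 to 3.02), a difference of 3.92. The difference was 6.13 with a width of 1000 bp or more as the rule, 13.0 among peaks found in both ChIP lists, and 1.40 in the list of replicate 2 alone. The ranges overlapped: 37 segments (12.5%) lay below the narrower peaks' median, and 115 narrower peaks (7.56%) lay above that of the segments. Values of 20 or more were reached by 39 segments and 9 narrower peaks. Width and q-value come from the same reads, so no test is given for this difference.

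Ordered by q-value, the 10 strongest autosomal peaks were all broad. Among the next 40 autosomal peaks by rank 29 were broad, as were 34 of the 50 at ranks 51 to 100, 86 of the 200 that follow and 62 of the 300 after those. At the weak end, from rank 1201 to rank 1819, they were 26 of 619. Among the segments, strength rose with width, from a median of 4.43 at 800 to 999 bp through 6.17, 9.01 and 14.8 in the next 3 width classes to 47.9 at 4000 bp or more. Spearman's rho between width and strength was 0.56 over the 297 segments and 0.46 over the narrower peaks, as a description of peaks that share their libraries.

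**Figure D1:**
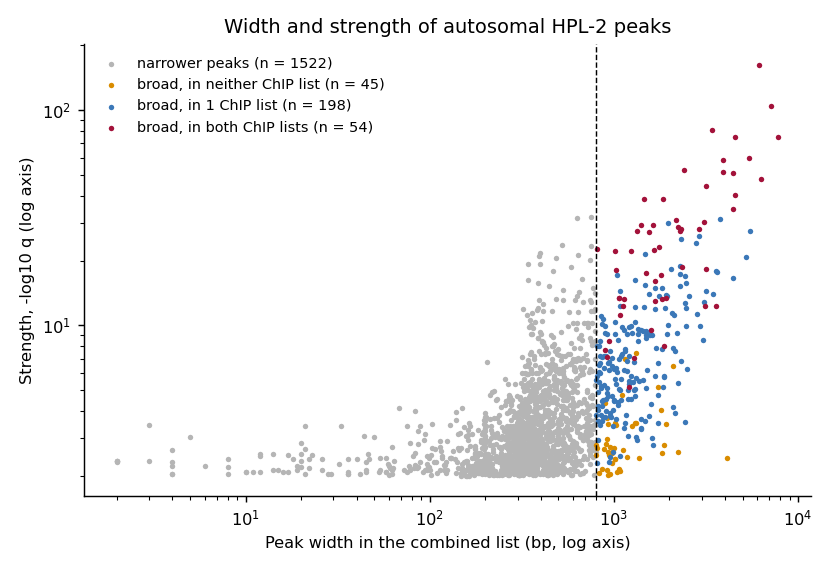
Each point is an autosomal peak of the combined list, with its width in bp and its strength as -log10 q, both on log axes. The dashed line marks 800 bp, and colours give the ChIP lists in which a segment was found. Segments found in both lists lie towards the top right, and the 45 found in neither lie towards the bottom.

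Each ChIP replicate also has a peak list of its own, of 1288 peaks for replicate 1 and 177 for replicate 2. A segment was counted as found where a peak of that list overlapped it by 1 bp or more. Replicate 1 held 251 of the 297 segments (84.5%, exact 95% interval 79.9 to 88.4%), where 56.9% of all autosomal combined peaks were found. Replicate 2 held 55 (18.5%, 14.3 to 23.4%), against 6.6% of all autosomal peaks. Both lists held 54 segments (18.2%, background 6.21%) and neither held 45 (15.2%, background 42.7%). The combined list was made from the same ChIP samples, so these shares do not test the segments independently. With at least 0.5 of the segment covered as the rule, replicate 2 held 7.07% and both lists 6.06%. Read depth is unknown for every list, and its part in the small number of replicate 2 peaks was not tested.

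The segments found in both lists were strong and long. Their median strength was 22.8 on the -log10 scale and their median width 1833.5 bp. For the 197 held by replicate 1 alone these medians were 6.67 and 1210 bp, and for the 45 that neither list held they were 2.67 and 1017 bp. One segment, on V from 19467297 to 19468157, was found in replicate 2 alone. It spanned 861 bp, had a q-value of 7.35e-08 in the combined list, and replicate 2 covered 58.4% of it.

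At like strength, broad and narrower peaks were found about as often in replicate 1. With -log10 q from 2 to 3 the shares were 23.1% of 39 segments and 21.7% of 796 narrower peaks, and from 3 to 5 they were 82.3% of 62 and 75.7% of 474. From 5 to 10 replicate 1 held 97 of 102 segments and all 201 narrower peaks, and above 10 it held every autosomal peak of either kind.

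Replicate 2 held fewer of the broad segments than of the narrower peaks in each of the 3 strength classes above 5. From 5 to 10 it held 8 of 102 segments (7.84%, 3.45 to 14.9%) and 28 of 201 narrower peaks (13.9%, 9.46 to 19.5%). From 10 to 20 it held 16 of 55 segments (29.1%, 17.6 to 42.9%) and 20 of 42 narrower peaks (47.6%, 32.0 to 63.6%). At 20 or more it held 31 of 39 segments (79.5%, 63.5 to 90.7%) and 8 of 9 narrower peaks (88.9%, 51.8 to 99.7%). That class rests on few narrower peaks and was not of like strength, with median -log10 q of 29.7 and 21.7. With a width of 600 bp as the rule, the difference from 10 to 20 was -8.34 percentage points in place of -18.5. The intervals overlap in each class, no test was run, and the classes were picked with the lists in view. Over the whole list the order was the other way, with 18.5% of segments and 4.27% of narrower peaks found, and the segments were stronger there by 3.92 in median. Below 5, replicate 2 held 0 of 101 segments (exact upper bound 3.59%) and 9 of 1270 narrower peaks (0.709%, 0.325 to 1.34%).

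**Figure D2:**
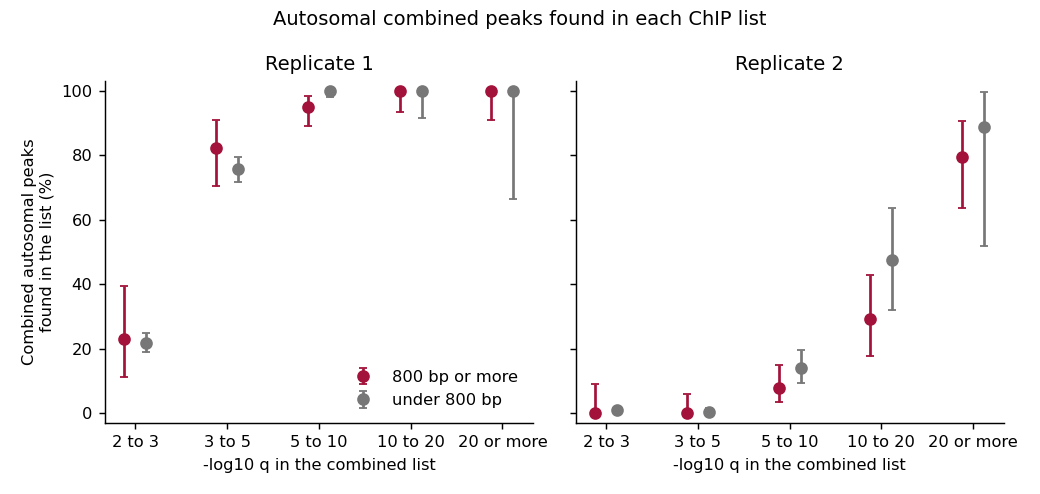
The share of autosomal combined peaks found in replicate 1 (left) and replicate 2 (right) is plotted against their -log10 q in the combined list, for peaks of 800 bp or more and narrower ones. Points are shares and bars exact 95% intervals for counting error. In replicate 2 the points for broad segments lie below those for narrower peaks from a -log10 q of 5 upwards.

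Of the 39 segments with a -log10 q of 20 or more, 8 had no peak in replicate 2. They spanned from 1477 to 5501 bp. The strongest was on I from 7656552 to 7660325 (3774 bp, q-value 5.58e-32), which replicate 1 held as 1 peak over 99.8% of its length. It was followed by I 8866705 to 8868682 (1978 bp, q-value 1.85e-30, 99.8% covered in replicate 1) and II 9616956 to 9622456 (5501 bp, q-value 3.77e-28, 98.1% covered). The next was V 2896298 to 2899182 (2885 bp, q-value 9.60e-27), which replicate 1 broke into 3 peaks, more than any other segment, over 83.9% of its length. The fifth was III 12312973 to 12315280 (2308 bp, q-value 5.12e-26, 97.3% covered). Over all 8, replicate 1 covered from 79.9% to 99.8% of the segment, with 90% or more in 4 of them.

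Replicate 1 held its segments mostly whole. Of the 251 it held, 222 were 1 peak, 28 were 2 peaks and 1 was 3 peaks, so that 29 were split (11.6%, 7.88 to 16.2%). The gaps inside split segments ran from 201 to 643 bp with a median of 249.5 bp, and 28 of the 30 gaps were 500 bp or shorter. With replicate 1 peaks at most 500 bp apart joined, 0.797% were split, and with combined peaks joined in that way 28.5% were. Split segments were longer, with a median width of 2069 bp against 1234.5 bp for those held as 1 peak. Replicate 1 peaks covered 76.0% of the bases of all 297 segments and 85.9% of those it held. Coverage per segment held had a median of 91.9% (middle 50% of segments, 76.6 to 98.1%), 145 segments were covered to 90% or more, and 21 to under 50%. The ends of single peaks fell a median of 17 bp inside the segment's own ends, and 293 of 444 ends lay within 50 bp of them.

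Replicate 2 marked only portions of the segments it held. Of the 55, it held 46 as 1 peak and 9 as several: 7 as 2 peaks, 1 as 3 and 1 as 4 (16.4% split, 7.77 to 28.8%). All 9 split segments were at least 2 kb wide, with a median width of 4543 bp, against 1661.5 bp for the others. The 12 gaps inside them ran from 223 to 4209 bp with a median of 470 bp, and 6 were 500 bp or shorter. Replicate 2 peaks covered 11.8% of the bases of all segments and 41.7% of those it held. Coverage per segment held ran from 7.52% to 98.6% with a median of 39.0%. It reached 90% in 4 segments and was under 50% in 34. The ends of single peaks fell a median of 294 bp inside the segment's ends.

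The middles of single replicate 2 peaks lay in the central one of 3 equal parts of the segment in 23 of 46 cases, in the left part in 9 and in the right part in 14. For the 222 single replicate 1 peaks, which are close to the segment in length, 183 had their middle in the central part.

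**Figure D3:**
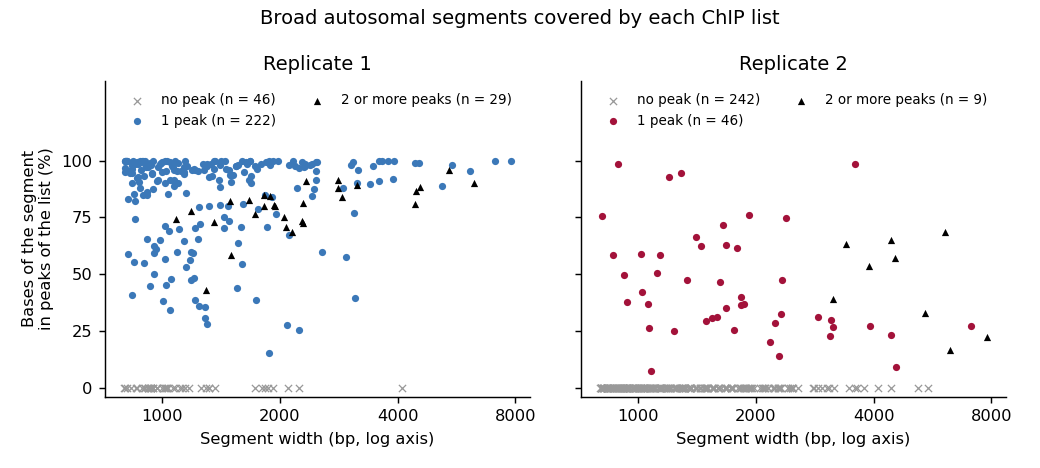
For each broad autosomal segment, the share of its bases inside peaks of replicate 1 (left) or replicate 2 (right) is plotted against its width on a log axis. Symbols separate segments with no peak, 1 peak and several peaks in that list. Replicate 1 gathers near full coverage, with a median of 91.9%, and replicate 2 scatters from 7.52% to 98.6%.

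The 10 strongest segments show this difference between the lists one by one. Replicate 1 held 9 of them as 1 peak and 1 as 2 peaks, covering from 89.6% to 100.0% of each. Replicate 2 held 3 of them as 1 peak, 5 as 2 peaks, 1 as 3 and 1 as 4, covering from 22.3% to 74.5%. The 2 ranges of coverage did not overlap.

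The strongest segment, on V from 8758074 to 8764177, spanned 6104 bp with a q-value of 1.28e-163. Replicate 1 held it as 1 peak over 95.5% of its length. Replicate 2 held peaks of 1142, 1366, 1000 and 744 bp across it, which covered 68.6% and left gaps of at most 663 bp. Here the pieces run along the whole segment, the first starting 66 bp before it and the last ending 494 bp short of its right end.

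The second, on I from 7079094 to 7086206 (7113 bp), was marked at one end in replicate 2. Replicate 1 covered 99.6% of it with 1 peak. The single replicate 2 peak spanned 1924 bp, began 60 bp inside the left end and left 5129 bp on the right without a peak, a coverage of 27.0%. The widest segment of all, on V from 6222317 to 6230103, had a different layout. Replicate 1 again covered 99.6% with 1 peak, and replicate 2 had peaks of 1092 and 642 bp that lay 4209 bp apart and covered 22.3%.

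On IV, the segment from 11913202 to 11916603 was covered to 89.6% by 1 replicate 1 peak and to 63.3% by 3 replicate 2 peaks of 757, 453 and 944 bp. The segment from 291708 to 296250 was covered to 98.8% and, by 2 peaks 734 bp apart, to 56.9%. The segment from 8431042 to 8433432, the shortest of the 10 at 2391 bp, was also the most completely marked in replicate 2, with 1 peak of 1782 bp over 74.5%. On III, 5501266 to 5506684 was held as 2 peaks in either list, with a largest gap of 223 bp in each, at 95.8% and 32.8% coverage. The gaps lay at different places, after position 5505623 in replicate 1 and after 5503728 in replicate 2. The remaining 3 were on II and V. Replicate 2 covered 27.2% of II 12052820 to 12056730, 53.6% of II 6345275 to 6349170 and 65.1% of V 723856 to 728296.

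**Figure D4:**
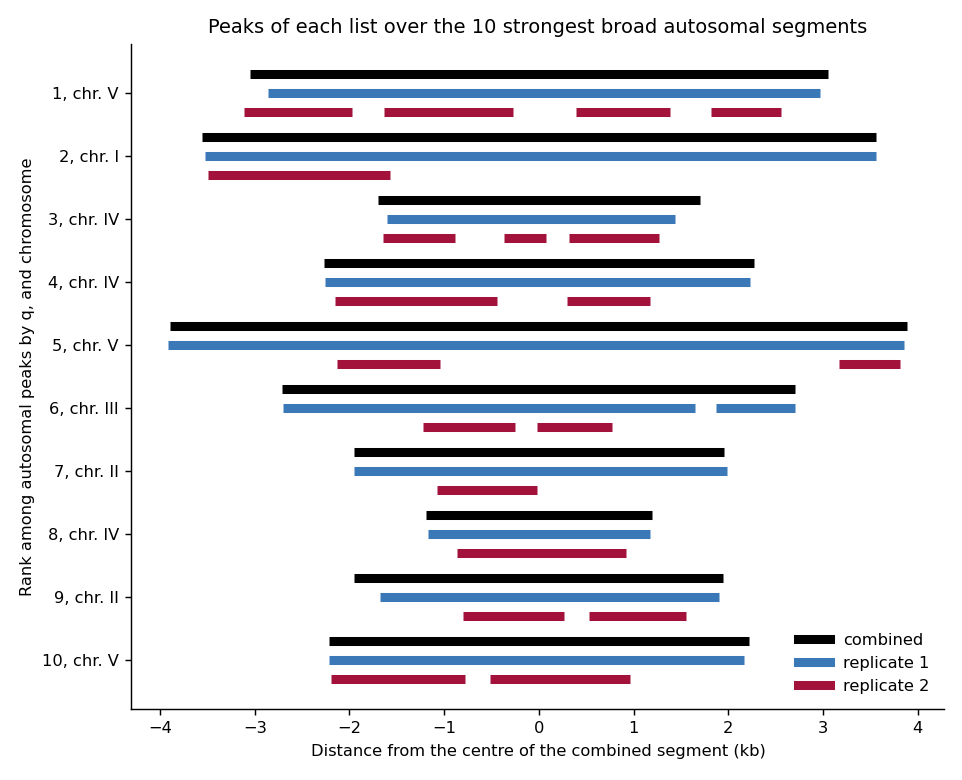
Peaks of the combined list (black), replicate 1 (blue) and replicate 2 (red) are drawn over the 10 strongest broad autosomal segments, by distance in kb from the segment's centre, in order of q-value. Replicate 1 follows the segment nearly from end to end, while replicate 2 peaks cover from 22.3% to 74.5% of it.

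Some of the widest segments were covered little or not at all by replicate 2. Of the 10 widest, II 9616956 to 9622456 and V 10713306 to 10718498 (5193 bp, q-value 2.20e-21) had no replicate 2 peak. The segment on V from 13653544 to 13659810 (6267 bp) was covered to 90.1% by 2 replicate 1 peaks and to 16.6% by 2 replicate 2 peaks that lay 2600 bp apart. II 8743258 to 8747817 (4560 bp) was covered to 88.5% and 9.21%, and I 13138491 to 13142932 (4442 bp) to 86.4% and 23.3%. Among segments found in neither list, the strongest were on V, led by 12442679 to 12443996 (1318 bp, q-value 3.89e-08) and 17293321 to 17294465 (1145 bp, q-value 1.14e-07). Next came 12554182 to 12556274 (2093 bp, q-value 3.31e-07) and 11535168 to 11536896 (1729 bp, q-value 7.28e-06). The fifth was on III, from 9807161 to 9808268 (1108 bp, 1.83e-05). These 5 had another combined peak from 229 to 1755 bp away.

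Read from the other side, broad peaks of the ChIP lists nearly always lay in a broad segment of the combined list. Replicate 1 had 203 autosomal peaks of 800 bp or more, covering 332.7 kb. Of these, 196 overlapped a broad segment, 6 overlapped only narrower combined peaks, and 1 overlapped none. Replicate 2 had 32, covering 41.5 kb, and 31 overlapped a broad segment. The exception was the strongest peak of replicate 2, which was also its widest on the autosomes. It lay on I from 15064004 to 15067632, with 3629 bp and a q-value of 2.00e-211. No peak of the combined list or of replicate 1 overlapped it. It was the peak closest to the right end of chromosome I in any list, and it does not enter the counts of segments above.

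By number, V held 75 segments, II 71, III 61, IV 47 and I 43. V had 25.3% of segments on 25.3% of the autosomal length, II 23.9% on 18.5%, III 20.5% on 16.7%, IV 15.8% on 21.2% and I 14.5% on 18.3%. Of the 32 broad peaks of replicate 2, 15.6% were on II. By covered length, V held 137.6 kb, II 113.6 kb, III 94.8 kb, IV 69.7 kb and I 68.0 kb. Segments per Mb ran from 2.69 on IV and 2.85 on I to 3.61 on V, 4.44 on III and 4.66 on II. The neighbours I and IV in this order, and III and II, had intervals of their shares that overlap widely.

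Chromosome IV was rich in narrower peaks and poor in broad ones. It held 431 of the 1522 narrower peaks (28.3%, 26.1 to 30.7%) and 47 of the 297 broad segments (15.8%, 11.9 to 20.5%). Broad segments were 9.83% of the combined peaks on IV (7.31 to 12.9%), and 18.2% to 19.1% of those on each of the other autosomes, where the lowest bound was 14.0%. No test of this difference was run, and neighbouring peaks are not independent, so the intervals are too narrow. The segments on IV were not weaker: their median -log10 q was 7.85, the highest of the 5 autosomes, against 5.80 on I, 5.82 on III, 6.96 on V and 7.18 on II. Replicate 2 held 12 of the 47 on IV (25.5%) and 17 of the 75 on V (22.7%), and 5 of the 43 on I (11.6%). Replicate 1 held from 77.0% on III to 91.5% on II. For these shares found by chromosome no intervals were computed, nor the shares over all combined peaks there. They are therefore not shown to be particular to broad segments.

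Along the chromosomes, arms and centres of C. elegans autosomes differ in repeats and in heterochromatin marks, with more of both in the arms. With each autosome divided into 3 equal parts, the outer parts held 183 of the 297 segments (61.6%, 55.8 to 67.2%). They held 948 of the 1522 narrower peaks (62.3%, 59.8 to 64.7%). By length the outer parts are 2 of the 3 equal parts, and neither share was above that. Outer parts of 0.25 of a chromosome each held 40.7% of segments, below their share of the length. The share of narrower peaks in those parts was not computed, so this value is not particular to broad segments. The left and right parts differed. The left held 68 segments (22.9%, 18.2 to 28.1%) and the right 115 (38.7%, 33.1 to 44.5%), where narrower peaks were at 30.5% and 31.8%. The right part held more segments than the left on II (33 against 14), V (30 against 15), III (23 against 14) and I (15 against 9), and fewer on IV (14 against 16). For narrower peaks, right against left was 110 against 97 on II, 128 against 58 on V and 85 against 91 on III. It was 57 against 56 on I and 104 against 162 on IV. On V the right part thus held like shares of both kinds, 40.0% of segments and 40.3% of narrower peaks. In the list of replicate 1, 36.0% of 203 broad and 32.9% of 879 narrower peaks lay in the right part. In replicate 2 the order was the other way, at 31.2% of 32 against 37.5% of 104. No intervals were computed for these shares. The combined list was made from the same ChIP samples, so they are not separate observations. This split into left and right was added once the lists were known, and no test was run.

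**Figure D5:**
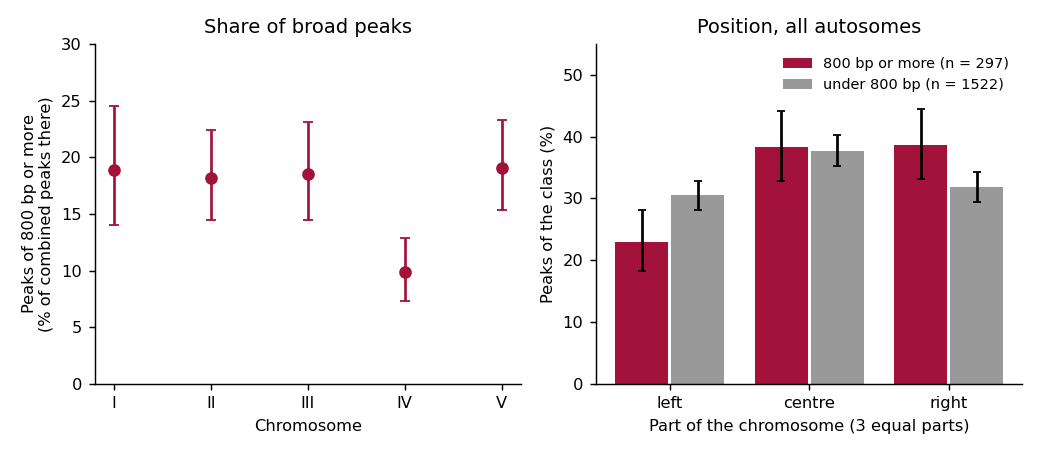
Left, the share of combined peaks on each autosome that span 800 bp or more, which is 9.83% on IV and 18.2% or more on the others. Right, the share of broad segments and of narrower peaks in the left, central and right of 3 equal parts of the autosomes, with 38.7% of segments in the right part. Bars are exact 95% intervals for counting error.

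Most broad segments of the combined list had another of its peaks close by. The nearest other combined peak lay within 5 kb, edge to edge, for 213 of the 297 segments (71.7%, 66.2 to 76.8%) and for 676 of the 1522 narrower peaks (44.4%, 41.9 to 47.0%). Within the list of replicate 1 the shares were 64.0% of 203 broad and 35.8% of 879 narrower peaks, and within that of replicate 2 they were 46.9% of 32 (29.1 to 65.3%) and 15.4% of 104 (9.06 to 23.8%), where pieces of a split segment count as neighbours. The median distance was 1.16 kb for segments and 7.43 kb for narrower peaks. The distance was 500 bp or less for 86 segments (29.0%) and for 158 narrower peaks (10.4%). The shortest for a segment was 207 bp. Segments also neighboured each other: 108 had another segment within 5 kb and 140 within 20 kb. No like counts were made for narrower peaks, so these counts were not set against the density of peaks. Whether such neighbours are separate regions or portions of one longer region was not tested.

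Joining segments at most 20 kb apart gave 41 pairs, 14 groups of 3, 2 groups of 5 and 1 group of 6. The group of 6 was on II from 10541923 to 10560217, where segments filled 12.5 kb of 18.3 kb. Their -log10 q ran from 2.56 to 18.6, replicate 1 held 5 of them and replicate 2 only the first, from 10541923 to 10544259, at 47.4% coverage. A group of 5 on V from 14830060 to 14851391 filled 8.60 kb of 21.3 kb, with a -log10 q of at most 9.96, and had no replicate 2 peak although replicate 1 held all 5. Within it, 1 replicate 1 peak of 3173 bp (14839140 to 14842312) ran across 2 combined segments. The other group of 5, on I from 13100408 to 13142932, filled 10.1 kb of 42.5 kb, reached a -log10 q of 38.8, and was held in full by replicate 1 and in 3 of its 5 segments by replicate 2. Of the 14 groups of 3, those with the longest span were on I from 7058731 to 7088206, with 9.43 kb of segments in 29.5 kb, and on II from 12041982 to 12060306, with 5.85 kb in 18.3 kb.

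The X chromosome, measured by the same width, held 82 peaks of 800 bp or more, or 4.66 per Mb against 3.61 on the autosomes. Their median width was 1170.5 bp and the widest spanned 4469 bp. Their median -log10 q was 5.66 (exact 95% interval 4.89 to 10.2), against 6.85 for the autosomal segments (6.15 to 7.64). The interval on X includes the autosomal median. The 75th percentile was 32.8 against 12.7. Replicate 2 held 26 of the 82 (31.7%, 21.9 to 42.9%) and replicate 1 held 71 (86.6%, 77.3 to 93.1%), and the difference from the autosomal shares was not tested.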

How the data were processed

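The authors called peaks with PeakSeq, per the source column of the deposited lists, with positions on WormBase WS220, per the file headers. The deposited lists give a first base, a last base and 1 q-value per peak, and all q-values were under 0.01. Not given in the sources used here are the version and settings of the caller, the aligner and the making of the combined list. Comment lines mark 3 broad combined segments as altered by a conversion between builds. Input samples entered no comparison.

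Widths, overlaps, gaps and covered bases were computed with Python 3.11.15, numpy 2.4.6 and pandas 2.3.3. Exact Clopper-Pearson 95% intervals (scipy 1.17.1) cover counting error only and assume that peaks are independent. Intervals of medians are exact order-statistic intervals. Chromosomes were taken to end where the last peak of any list ends. The functions recovered the number of pieces, the covered bases and the distance to the nearest other segment for 300 of 300 simulated segments. Gaps between the pieces of a split segment were not checked in this way. No test was run, because width, q-value and overlap come from the same ChIP samples and peaks are not replicates. The planned design was a description for the same reason.

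Members, width rule and comparisons were chosen with earlier results of these data known. Named segments are the 10 strongest, the 10 widest, the 5 strongest in neither ChIP list and in replicate 1 alone, those in most pieces, the largest groups and those next to 800 bp. Any other is named in the text because of its values. Genes and sequences are not reported, since the gene table at hand is on WBcel235, another build.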

Additional observations from a re-analysis of the deposited data

How the results depend on the processing

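Of 95 values under other settings, 62 stayed inside a range set around the reported value. For shares and medians this range was the exact 95% interval, and for the number and length of segments it was within 1.5 times. For covered bases the interval treated the share of bases as a share of segments. For differences it was the interval of the broad segments alone, with the value of the narrower peaks held fixed. A change of sign was looked for only in the differences in strength and in the share found in replicate 2, and none was seen. Of these settings' values 82 were planned, and 13 were chosen after seeing the data. The values outside their range follow, and unless the setting itself shows it the cause was not tested. With a width of 600 bp or more there were 467 segments, the strength difference was 3.00, 79.9% were found in replicate 1, 19.9% in neither list, and 7.77% of those in replicate 1 were split. With 1000 bp or more the median width was 1542 bp, the strength difference 6.13, and 88.7%, 23.6% and 23.6% were found in replicate 1, replicate 2 and both. With combined peaks at most 500 bp apart joined, the median width was 1362 bp, 28.5% were split in replicate 1, 68.9% of bases were covered there, and 60.6% had a neighbour within 5 kb. Joining replicate 1 peaks likewise left 0.797% of segments split there, because nearly all gaps are that short. Requiring at least 0.5 of a segment to be covered gave 77.4% in replicate 1, 7.07% in replicate 2, 6.06% in both and 21.5% in neither. The strength difference was 3.20 against narrower peaks of 400 bp or more and 13.0 among peaks in both ChIP lists. With the outer parts set at 0.25 of a chromosome each, they held 40.7%. Neighbours within 2 kb and 10 kb were 60.9% and 79.5%. With 1 replicate left out (the other's list in place of the combined one), segments numbered 32 to 203, covered 41.5 to 332.7 kb, had a median width of 1079 to 1255 bp and a strength difference of 1.40 to 3.72. The share on II was 15.6% to 26.6%, on V 24.6% to 37.5%, in the right part 31.2% to 36.0%, and with a close neighbour 46.9% to 64.0%. The low counts are those of the 177 peaks of replicate 2. No paired analysis was possible because the Input samples have no list here to pair with and nothing was fitted over samples. Without read depth, comparisons between lists stay limited.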

Other observations

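Single segments outside the rule for named ones went against the general pattern, and they were chosen after their values had been seen. On V, the segment from 1431991 to 1435579 (3589 bp, -log10 q 12.3) was held in replicate 2 as 1 peak of 3540 bp over 98.6% of its length, and in replicate 1 over 99.9%. It is the longest segment that both lists held nearly whole. On III, the segment from 10751459 to 10755560 spanned 4102 bp and had no peak in either ChIP list, with a -log10 q of 2.40. It was the only segment of 4000 bp or more that replicate 1 lacked. On IV, the segment from 14070228 to 14072102 (1875 bp) had the lowest coverage among those held by replicate 1, at 15.1%. The best-ranked replicate 2 peak inside a broad segment, at rank 19 of that list, lay on V in the segment from 264906 to 266582. The 3 segments marked as altered by the conversion between builds are on II (5660902 to 5662693 and 7478354 to 7479287) and III (834970 to 836160), and leaving them out gave 294 segments with a strength difference of 3.97.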
